A study of Saccharomyces cerevisiae with 6 samples.

Results

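The genes described here make purine and pyrimidine nucleotides, take nucleobases up and recycle them, supply the activated sugar phosphoribosyl pyrophosphate (PRPP), or carry the one-carbon units that purine synthesis uses. They were chosen by name, as 41 listed standard gene names of the budding yeast Saccharomyces cerevisiae, and each was matched to the 1 array probe that carries its systematic name. All 41 were found among the 6256 gene probes of the array. The list holds 10 genes of the purine route to AMP with its regulator BAS1, 5 of the GMP branch, 10 of the pyrimidine route with its regulator PPR1, 7 of uptake and salvage, 5 PRPP synthetase genes and 4 one-carbon genes. All 41 were well above background on all 6 arrays, so none was left out by the filter on dim probes and every fold given for them is a measured one.

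BH13, a mutant strain with improved resistance to coniferyl aldehyde, a phenolic aldehyde that comes from lignin, was compared with the reference strain, here REF. Both were grown without treatment in yeast minimal medium at 30 °C and 150 rpm to log phase, at an OD600 of about 1.0, and total RNA of 3 samples per strain was hybridised to one-colour arrays. The labels give neither the mutations of BH13 nor the name, ploidy or marker alleles of REF, and BH13 is a single selected strain, so a difference belongs to this strain and cannot be tied to one mutation.

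Purines are built up on PRPP, step by step, to IMP, which is then turned into AMP or GMP. Several steps use glutamine, glycine, aspartate or one-carbon units on tetrahydrofolate, and in yeast the transcription factors Bas1 and Pho2 together raise ADE gene expression when adenine is scarce. Pyrimidines are built as a ring first, orotate, which is joined to PRPP and becomes UMP and then UTP and CTP, and the factor Ppr1 raises several URA genes when its pathway intermediates accumulate. Growing yeast needs large amounts of these nucleotides for ribosomal RNA.

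Signals are given as log2 values relative to the 75th percentile of the same array, so that 0 is that percentile and a difference of 1 is a doubling. Differences are BH13 minus REF, ± the standard error of the limma fit, with n = 3 arrays per strain. A gene is called when its limma p-value, adjusted by the Benjamini-Hochberg method over all 5890 probes tested, is under 0.05. Such values are relative to the other RNA of the same sample, and in a bulk culture fewer cells that express a gene and less of its RNA per cell cannot be told apart.

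The arrays of one strain resembled each other, with correlations of log2 signal across genes between 0.994 and 0.998, against 0.854 to 0.877 between strains (genes are not independent replicates). Between 91.4% and 93.8% of gene spots were well above background, and no gene spot was saturated. The 3 BH13 arrays shared 1 slide and were scanned on 1 day. The REF arrays lay on 2 other slides and were scanned on another day. Strain therefore cannot be told apart from slide or from day of scanning. Of 5890 probes, 81.3% were called, 43.3% as lower and 38.0% as higher in BH13. Check lists differed widely: all 20 general stress genes were higher (median 3.84, with TMA10 at 6.88 and the hexokinase gene HXK1 at 6.67) and all 24 ribosome biogenesis genes were lower (median -2.02, with the helicase gene DBP2 at -4.34 and the nucleolar protein gene NSR1 at -2.99). The summed signal of the ribosome biogenesis list was 24.0 to 25.7 times the 75th percentile on BH13 arrays and 97.4 to 110.3 times on REF arrays. That of the stress list was 136 to 146 times on BH13 arrays and 8.81 to 13.5 times on REF arrays. The markers of a haploid a cell were weaker in BH13, and all 7 a-cell and all 8 haploid genes were called lower. The summed signals were 0.276 to 0.285 in BH13 against 7.53 to 7.86 in REF for the a-cell list. For the haploid list they were 0.557 to 0.574 against 7.28 to 7.41. Not every marker was bright in REF, where AGA2 read -4.18, -3.83 and -3.90. MFA2, AGA2 and HO, 3 of these markers, did not rise well above background in BH13, and MFA1 did so on 1 of its 3 arrays. FUS3, a MAP kinase gene of mating, fell by 6.01. For HO, the mating-type switching endonuclease gene, and the a-factor gene MFA2, low BH13 values were raised to a floor. The floor was the dimmest signal flagged well above background on the same array. HO was then 296-fold lower and MFA2 181-fold lower. That floor is not a detection limit, so these folds are not strict lower bounds. Of 4 alpha-cell markers tested, 2 were higher and 1 lower (AFB1 at -1.45, MF(ALPHA)1 at 1.07), and the list summed to 0.158 to 0.194 in BH13 and 0.174 to 0.213 in REF. What part growth state, cell type, slide or day of scanning has in the nucleotide genes was not tested.

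Most of the listed nucleotide genes were lower in BH13. The list was chosen with earlier results of these data known. Of the 41 genes, 38 were called lower, which is 92.7% of them against 43.3% of all genes tested, and 1 was called higher. At least 2-fold lower were 25 of the 41, or 61.0%, against 17.5% of all genes. The median difference over the 41 genes was -1.14, and that over all genes tested was -0.07. For 40 of the 41 genes the 3 BH13 values lay wholly above or wholly below the 3 REF values, against 83.7% of all genes. They lay wholly below for 38 of the 41, against 44.6% of all genes. The exceptions to the fall were URA10, which rose, and URA8 and BAS1, which were not called.

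**Figure D1:**
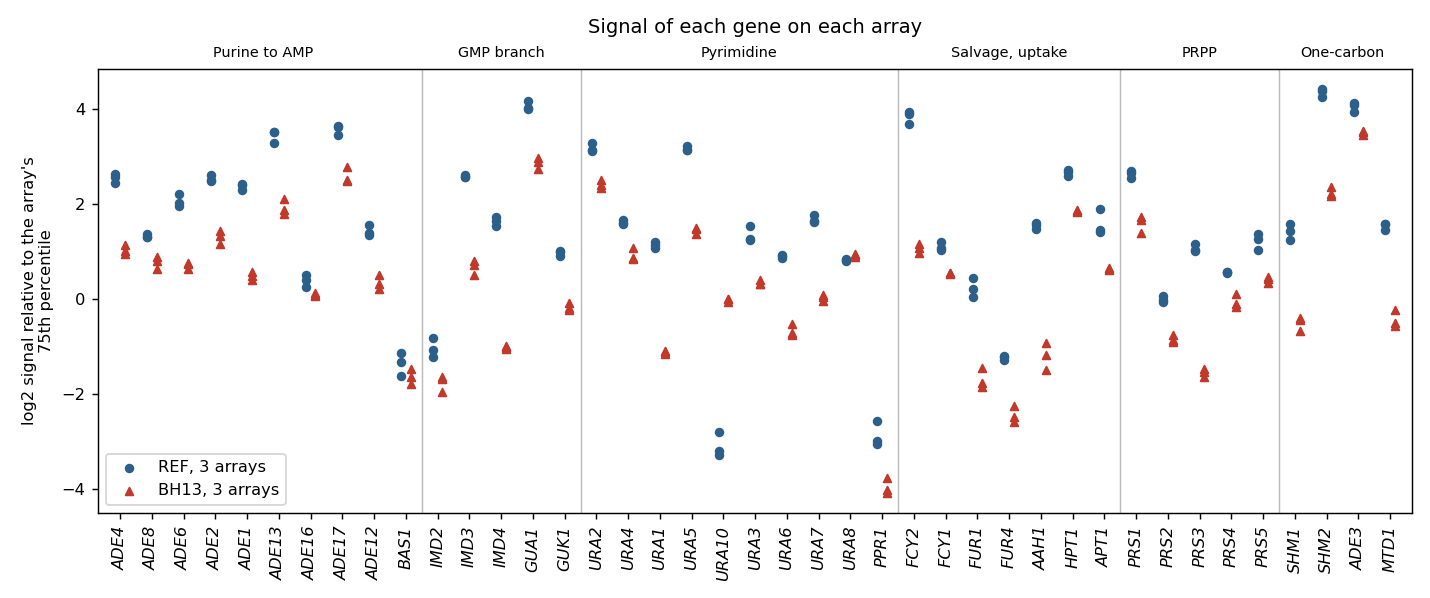
Signal of the 41 genes on each array, as log2 relative to the array's 75th percentile, with 1 point per array (REF circles, BH13 triangles) and genes grouped by pathway. The BH13 points lie below the REF points for most genes, and above them for URA10 and by a small margin for URA8. For BAS1 the points of the strains overlap, with those of BH13 on the lower side. Heights of different genes come from different probes and are not comparable.

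In the purine route to AMP, all 9 enzyme genes were called lower, against 43.3% of all genes tested. Their median was -1.22, and 6 fell at least 2-fold, or 66.7%, against 17.5% of all genes. ADE4 encodes the amidotransferase of the first committed step, which puts nitrogen on PRPP. Its signal was 0.95, 1.01 and 1.14 on the BH13 arrays and 2.63, 2.57 and 2.45 on the REF arrays. The groups were far apart, and ADE4 fell by 1.52 ± 0.09 (limma adjusted p = 8.07e-07), which is 2.86-fold. ADE6, whose enzyme adds a further glutamine nitrogen, read 0.64, 0.74 and 0.77 in BH13 and 1.95, 2.22 and 2.01 in REF. It was lower on every BH13 array, with a difference of -1.34 ± 0.09.

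ADE2 and ADE1 act one after the other on the imidazole ring, as carboxylase and as SAICAR synthetase. ADE2 is often deleted or mutated as a colour marker in laboratory strains. It was well above background on every array of both strains, at 1.16, 1.32 and 1.44 in BH13 and 2.61, 2.49 and 2.50 in REF, and fell by 1.22 ± 0.09 (limma adjusted p = 3.94e-06). The array does not show whether either strain carries an allele of ADE2 without function. ADE1 had the largest fall of the 9 genes. Its BH13 arrays read 0.41, 0.48 and 0.56 and its REF arrays 2.40, 2.29 and 2.41, a difference of -1.88 ± 0.08 or 3.69-fold.

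Adenylosuccinate lyase, encoded by ADE13, serves both the route to IMP and the last step to AMP. ADE13 read 1.88, 1.79 and 2.10 in BH13 and 3.51, 3.29 and 3.51 in REF, and fell by 1.51 ± 0.11. The step before it in AMP synthesis belongs to ADE12, adenylosuccinate synthase, at 0.32, 0.22 and 0.50 in BH13 and 1.56, 1.36 and 1.40 in REF. ADE12 fell by 1.09 ± 0.10, and neither gene had overlapping groups. The smaller falls were those of ADE8, the glycinamide ribotide transformylase gene, at -0.55 ± 0.09, and of the isoenzyme genes ADE16 and ADE17, which close the ring to IMP.

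ADE16 was at 0.08, 0.14 and 0.05 in BH13 and 0.41, 0.25 and 0.51 in REF. The gap between the strains was narrow but the values did not overlap, and the difference was -0.30 ± 0.09 (limma adjusted p = 0.0111). ADE17 was at 2.48, 2.51 and 2.79 in BH13 and 3.62, 3.45 and 3.64 in REF, with a difference of -0.98 ± 0.10. BAS1, the gene of the ADE activator, gave -1.63, -1.47 and -1.79 in BH13 and -1.33, -1.14 and -1.62 in REF. These values overlapped, and the difference of -0.27 ± 0.14 was not called (limma adjusted p = 0.094). Over the alternatives its limma adjusted p ranged from 0.0110 to 0.276. BAS1 was called without the third REF array, at -0.40 (limma adjusted p = 0.0110), and with the replicate number as a block, at -0.27 (limma adjusted p = 0.0144). Without the second REF array the difference was -0.16 (limma adjusted p = 0.276).

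All 5 genes of the GMP branch were called lower, against 43.3% of all genes tested, with a median of -1.20. IMP dehydrogenase makes the first step from IMP towards GMP and is encoded by several closely related genes, and their probes may not separate them fully. IMD4 fell the most of the 5, from 1.54, 1.64 and 1.74 on the REF arrays to -1.05, -0.98 and -1.02 on the BH13 arrays. That is -2.66 ± 0.08 on the log2 scale, or 6.30-fold (limma adjusted p = 5.79e-08). IMD3 read 0.51, 0.71 and 0.81 in BH13 and 2.58, 2.62 and 2.57 in REF, a difference of -1.91 ± 0.09. IMD2, which yeast induces when GTP runs short, read -1.69, -1.95 and -1.64 in BH13 and -0.83, -1.23 and -1.07 in REF. Its groups were closer together, and the difference was -0.72 ± 0.13 (limma adjusted p = 0.000739).

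GMP synthase, encoded by GUA1, and guanylate kinase, encoded by GUK1, complete the branch. GUA1 read 2.73, 2.97 and 2.88 in BH13 and 4.16, 4.03 and 4.00 in REF, and fell by 1.20 ± 0.09. GUK1 read -0.19, -0.07 and -0.23 in BH13 and 0.91, 0.99 and 1.01 in REF, and fell by 1.14 ± 0.08. Both genes were thus lower on every BH13 array than on any REF array.

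**Figure D2:**
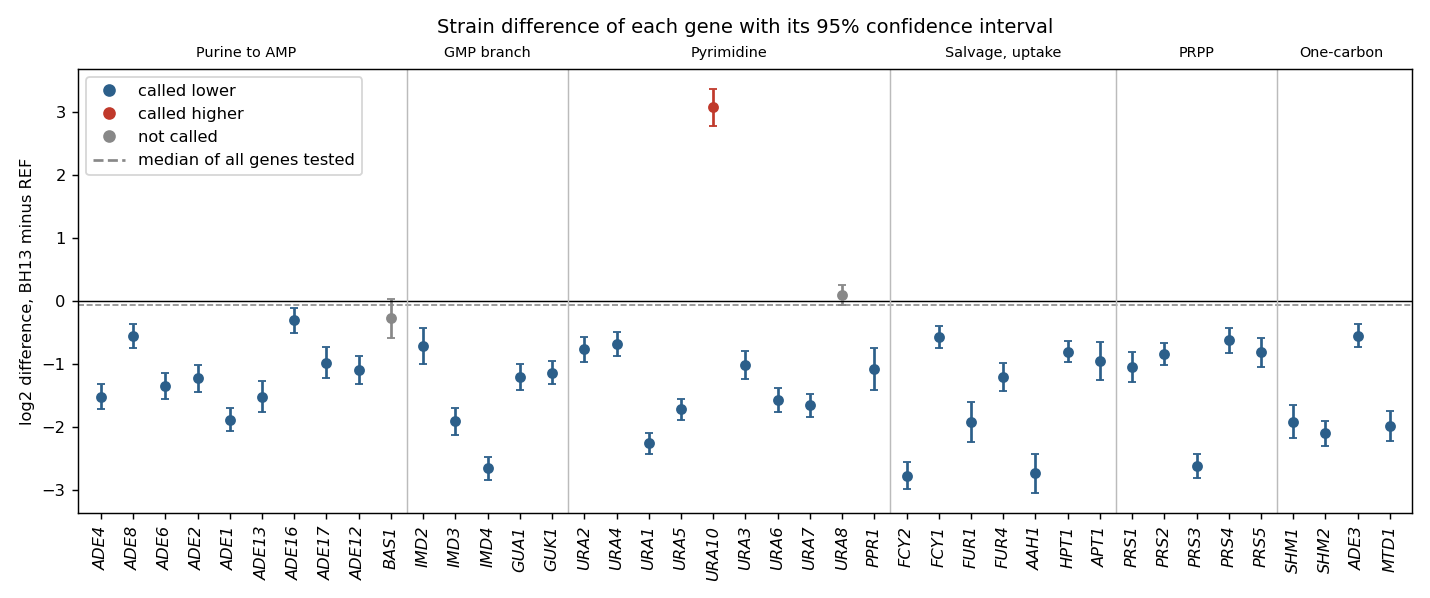
Strain difference of each of the 41 genes, BH13 minus REF, on the log2 scale, with bars for the 95% confidence interval of the limma fit over 3 arrays per strain. Colour marks genes called lower, called higher and not called, and the dashed line is the median of all genes tested at -0.07. URA10 stands at 3.07, and FCY2, AAH1, IMD4 and PRS3 lie between -2.77 and -2.62.

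The pyrimidine route was lower at most steps, with 8 of 10 genes called lower, against 43.3% of all genes tested. It held the only gene of the list that was called higher, against 38.0% of all genes. The first reactions, by the URA2 protein that makes carbamoyl phosphate and carbamoyl aspartate and by the dihydroorotase of URA4, changed by -0.77 ± 0.08 and -0.68 ± 0.09. URA1, the dihydroorotate dehydrogenase gene that makes orotate, fell the most of the route. It read -1.10, -1.11 and -1.15 on the BH13 arrays and 1.19, 1.14 and 1.07 on the REF arrays. The difference was -2.26 ± 0.07, or 4.78-fold (limma adjusted p = 6.52e-08), with no overlap between the strains.

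Orotate is joined to PRPP by orotate phosphoribosyltransferase, of which yeast has a major isoenzyme gene, URA5, and a minor one, URA10. URA5 read 1.36, 1.47 and 1.50 in BH13 and 3.22, 3.14 and 3.15 in REF, and fell by 1.72 ± 0.08. URA10 read 0.00, -0.07 and -0.01 in BH13 and -3.20, -3.29 and -2.81 in REF. Every BH13 value of URA10 was above every REF value, and the gene rose by 3.07 ± 0.12, or 8.42-fold (limma adjusted p = 1.49e-07). With normexp background correction the rise was 2.79. At least 2-fold higher and called were 17.9% of all genes, and URA10 was the 1 member of the list among them.

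Orotidine phosphate decarboxylase, encoded by URA3, makes UMP and is a common selection marker, deleted or mutated in many laboratory strains. URA3 was well above background on all arrays of both strains, at 0.31, 0.39 and 0.32 in BH13 and 1.24, 1.55 and 1.27 in REF. It fell by 1.01 ± 0.10 (limma adjusted p = 1.86e-05), and whether either strain carries a marker copy is not shown by the array. URA6, the uridylate kinase gene, read -0.71, -0.53 and -0.76 in BH13 and 0.91, 0.87 and 0.92 in REF, a difference of -1.57 ± 0.08.

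CTP synthase makes CTP from UTP and has the isoenzyme genes URA7 and URA8. URA7 read 0.08, 0.05 and -0.05 in BH13 and 1.77, 1.65 and 1.62 in REF, and fell by 1.65 ± 0.08. URA8 read 0.93, 0.88 and 0.94 in BH13 and 0.80, 0.84 and 0.83 in REF. Its BH13 values were all slightly above its REF values, but the difference of 0.09 ± 0.07 was not called (limma adjusted p = 0.234), with a 95% confidence interval from -0.06 to 0.25. PPR1, the gene of the pathway's activator, had a low signal, at -4.02, -3.76 and -4.08 in BH13 and -3.06, -2.57 and -3.00 in REF. The groups did not overlap, and it fell by 1.08 ± 0.14 (limma adjusted p = 0.000136), with a difference of -0.79 after normexp background correction.

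Isoenzymes of one step were compared by the log2 ratio of their probes within each array, and by how far this ratio differed between strains. With 3 arrays against 3, the smallest p that an exact two-sided permutation test can give is 0.1, so none of the 8 pairs could pass 0.05. For URA5 against URA10 the ratio was lower in BH13 by 4.79 ± 0.17 (95% confidence interval -5.26 to -4.33, exact permutation p = 0.1, adjusted 0.114). For URA7 against URA8 it was lower by 1.75 ± 0.07 (interval -1.95 to -1.54). In both pairs the first gene fell relative to the second in every comparison of a BH13 with a REF array.

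Among the IMP dehydrogenase genes, IMD4 fell by 1.94 ± 0.19 more than IMD2 and by 0.74 ± 0.10 more than IMD3, and IMD3 by 1.19 ± 0.18 more than IMD2. ADE17 fell by 0.67 ± 0.12 more than ADE16 (interval 0.35 to 1.00). Each of these 4 pairs had the smallest possible exact permutation p of 0.1. The serine hydroxymethyltransferase genes SHM1 and SHM2 gave a difference of 0.19 ± 0.08 (interval -0.02 to 0.40, exact permutation p = 0.2). The PRPP synthetase genes PRS2 and PRS4 gave -0.21 ± 0.07 (interval -0.40 to -0.03, exact permutation p = 0.1). Related isoenzymes can share sequence, and how far a probe reads its partner was not tested.

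**Figure D3:**
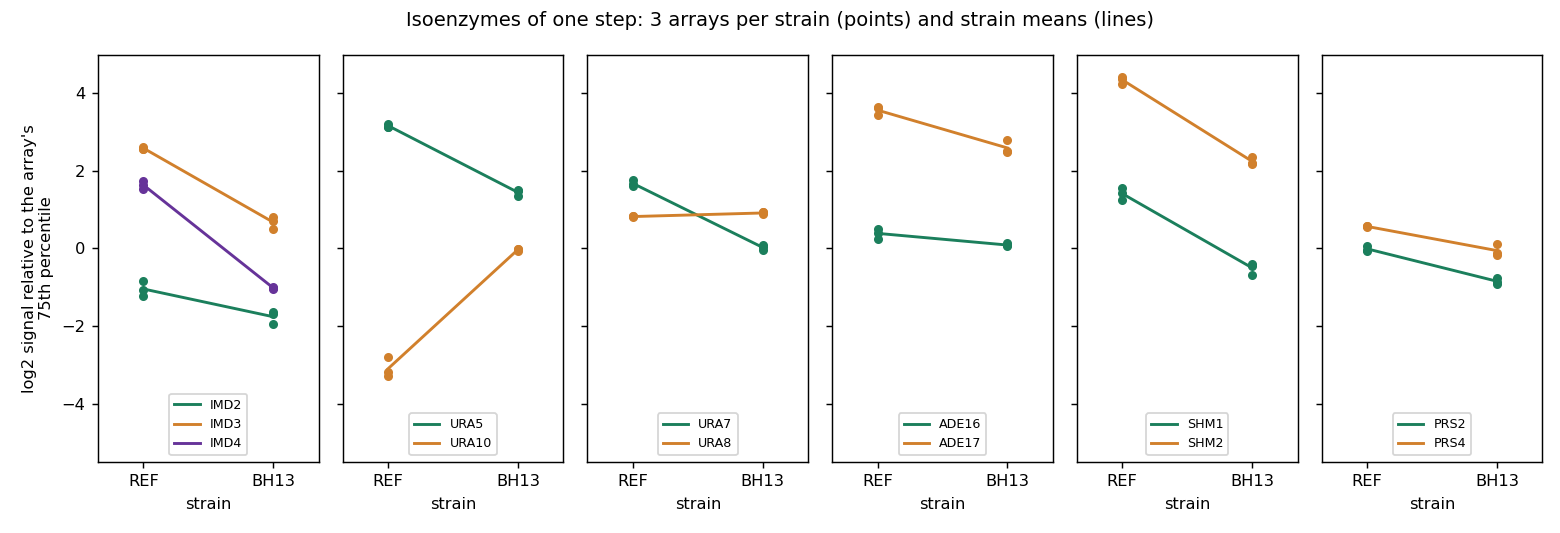
Signal of isoenzyme genes of one step in REF and BH13, as log2 relative to the array's 75th percentile, with points for the 3 arrays of each strain and lines between strain means. The lines of URA5 and URA10 run in opposite directions, by -1.72 and 3.07, while those of SHM1 and SHM2 are near parallel, at -1.91 and -2.10. Slopes can be compared, but heights of different genes come from different probes.

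All 7 genes of uptake and salvage were called lower, against 43.3% of all genes tested. At least 2-fold lower were 4 of them, or 57.1%, against 17.5% of all genes. FCY2 encodes the permease for adenine, guanine, hypoxanthine and cytosine, and fell, with AAH1, the most of the 41 genes. It read 0.97, 1.16 and 1.07 in BH13 and 3.89, 3.94 and 3.68 in REF, a difference of -2.77 ± 0.10, or 6.82-fold (limma adjusted p = 8.23e-08). AAH1 encodes adenine deaminase, which turns adenine into hypoxanthine. It read -1.18, -0.93 and -1.49 in BH13 and 1.47, 1.59 and 1.56 in REF, and fell by 2.74 ± 0.13, or 6.66-fold. The spread among the BH13 arrays was wider here than for most of the list, but no BH13 value came near a REF value.

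For uracil, the phosphoribosyltransferase gene FUR1 read -1.77, -1.45 and -1.86 in BH13 and 0.20, 0.44 and 0.05 in REF. FUR1 fell by 1.92 ± 0.14. The uracil permease gene FUR4 read -2.58, -2.25 and -2.49 in BH13 and -1.22, -1.19 and -1.29 in REF, and fell by 1.21 ± 0.10. The signals of both genes, that of uracil uptake and that of uracil salvage, were therefore lower. The other 3 genes fell less than 2-fold: FCY1, cytosine deaminase, at -0.56 ± 0.08, HPT1, the phosphoribosyltransferase of hypoxanthine and guanine, at -0.80 ± 0.07, and APT1, that of adenine, at -0.95 ± 0.13.

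PRPP synthetase makes the sugar donor of all these routes. Its 5 genes were all called lower, against 43.3% of all genes tested, with a median of -0.84. PRS3 stood apart in size, from 1.04, 1.02 and 1.16 on the REF arrays to -1.65, -1.53 and -1.47 on the BH13 arrays. It fell by 2.62 ± 0.08, or 6.16-fold (limma adjusted p = 6.35e-08). PRS1 read 1.38, 1.72 and 1.66 in BH13 and 2.65, 2.69 and 2.56 in REF, a difference of -1.04 ± 0.10. PRS2 read -0.86, -0.77 and -0.90 in BH13 and -0.06, 0.06 and -0.03 in REF, and PRS4 -0.17, 0.11 and -0.10 and 0.58, 0.56 and 0.57. Their differences of -0.84 ± 0.08 and -0.62 ± 0.09 were close to that of PRS5, at -0.81 ± 0.10, and none of these genes had overlapping groups.

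All 4 one-carbon genes were called lower, against 43.3% of all genes tested, with a median of -1.95. Serine hydroxymethyltransferase moves a carbon from serine to tetrahydrofolate, in mitochondria through SHM1 and in the cytosol through SHM2. SHM2 read 2.21, 2.17 and 2.36 in BH13 and 4.38, 4.25 and 4.41 in REF, and fell by 2.10 ± 0.08, or 4.29-fold (limma adjusted p = 1.43e-07). SHM1 read -0.44, -0.67 and -0.39 in BH13 and 1.43, 1.24 and 1.57 in REF, and fell by 1.91 ± 0.11. MTD1, a cytosolic methylenetetrahydrofolate dehydrogenase gene, read -0.57, -0.51 and -0.24 in BH13 and 1.58, 1.45 and 1.59 in REF. It fell by 1.98 ± 0.10, so these 3 genes moved by similar amounts. ADE3, the cytosolic C1-tetrahydrofolate synthase gene, differed by -0.55 ± 0.08 (limma adjusted p = 0.000237), the smallest fall of the 4.

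Other genes of the same pathways, outside the 41, went both ways. Both lists were chosen with earlier results of these data known, so the contrast between them is only described. Of 41 such genes, 25 were called lower, or 61.0%, against 43.3% of all genes. Called higher were 11 of the 41, against 38.0% of all genes. At least 2-fold lower were 11 of them, or 26.8%, against 17.5% of all genes, and their median was -0.43, against -0.07. The largest falls were those of FUI1, the uridine permease gene, at -2.90 ± 0.10, and of RKI1, the ribose-5-phosphate isomerase gene upstream of PRPP, at -1.93 ± 0.08. ADE5,7, which encodes the purine enzymes of the steps after ADE4 and after ADE6, fell by 1.90 ± 0.12, close to ADE1. URK1, uridine kinase, fell by 1.55 ± 0.08, and CDC21, thymidylate synthase, by 1.52 ± 0.08.

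In the folate and glycine part, FOL1, an enzyme gene of folate synthesis, fell by 1.36 ± 0.08 and GCV2, a glycine cleavage subunit gene, by 1.30 ± 0.12. PHM8, a nucleotide phosphatase gene, was the one of these 41 that was at least 2-fold higher, at 2.77 ± 0.16 (limma adjusted p = 8.18e-07). The 24 ribosome biogenesis genes were all at least 2-fold lower, against 17.5% of all genes tested. Their median, at -2.02, was lower than that of the 41 nucleotide genes, at -1.14. These medians are descriptions, and no test of a difference between lists was made.

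**Figure D4:**
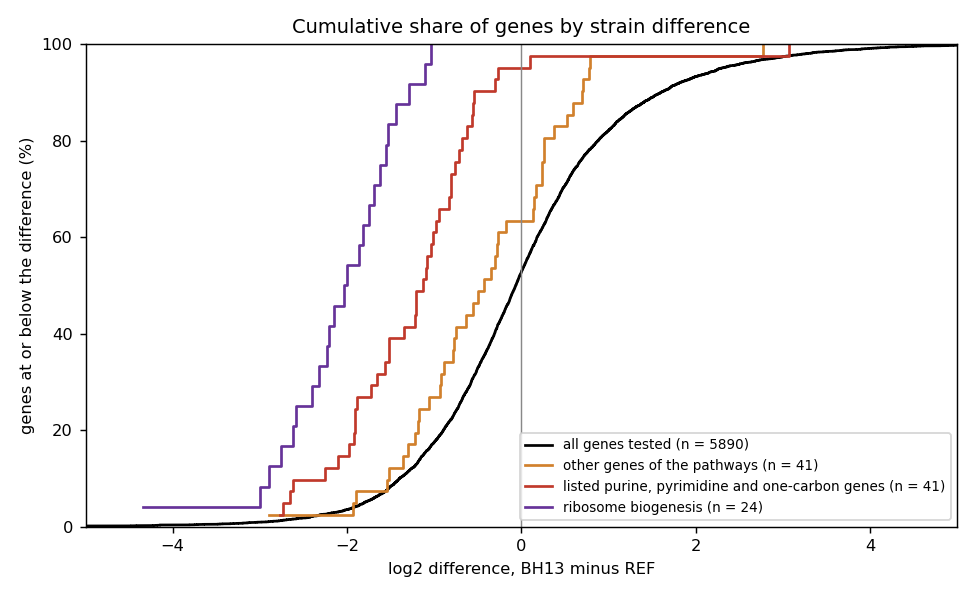
Cumulative share of genes, in percent, against the log2 difference BH13 minus REF, for all 5890 genes tested, the 41 listed genes, 41 other genes of the same pathways and 24 ribosome biogenesis genes. Over most of its range the curve of the listed genes lies left of those of all genes and of the other pathway genes and right of that of ribosome biogenesis, with medians of -1.14, -0.07, -0.43 and -2.02 in that order.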

How the data were processed

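Total RNA of 3 BH13 and 3 REF samples was Cy3-labelled and put on Agilent yeast arrays of 1 colour, per the labels' protocols. Scanner files deposited for each array hold linear spot intensity with the background already subtracted, by version 10.7.3.1 of Agilent Feature Extraction per the file headers, whereas the submitters' processing notes name 9.1. The table deposited by the authors holds log2 values for 1325 probes, each centred on its median over the 6 arrays, and 21 of the 41 genes are in it. Its strain differences had a slope of 1.00 against those of the scanner values, with the same sign for all 1325 probes, and the medians of its BH13 columns were -0.58, -0.53 and -0.55, those of its REF columns 0.56, 0.60 and 0.52. Its filter is not given in the sources used here.

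The log2 processed signal was averaged over the 2 spots of each probe, without outlier spots, and each array's 75th percentile (2301 to 4905 intensity units) was subtracted. Probes well above background, in at least 1 spot, on 3 of 6 arrays were tested: 5890 of 6256. Names came from the RefSeq gene table of assembly R64, which matched 5756 of the 6256 systematic names. Strains were compared with lmFit and eBayes of limma 3.58.1 under R 4.3.3, two-sided, after a check on simulated data. Permutation over 3 against 3 arrays cannot give a p under 0.1. Figures were drawn with matplotlib 3.10.9. Groups and replicate numbers came from the sample titles, which do not say whether the cultures were independent. The p-values therefore reflect only variation among these samples, possibly technical. The precision is limited by the number of arrays.

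Alternatives were normexp background correction on median signals with an offset of 50, median centring, quantile normalization, other filters on dim probes, the table of the authors, blocks for replicate number (fixed) or slide (random), and leaving out each array. Omission of spots with an uneven or outlying background was an alternative chosen after seeing the data. The 41 genes and all lists were chosen with earlier results of these data known. Values per array are given for genes called with at least a 2-fold difference, for ADE2, URA3, BAS1 and PPR1, and for isoenzymes, and of the other pathway genes the 8 largest called differences are named. Promoter motifs and sequences were not analysed here.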

Additional observations from a re-analysis of the deposited data

How the results depend on the processing

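Under 15 alternatives, 40 of the 41 genes kept their direction and their side of the threshold wherever they had a value. BAS1 was the exception, called lower with the replicate block (-0.27, limma adjusted p = 0.0144) and without the third REF array (-0.40, limma adjusted p = 0.0110). Genes called lower numbered 38 or 39 of 41, and URA10 was called higher, under each alternative that tested all 41. Other filters on dim probes and the replicate block leave each gene's difference unchanged, so there only its p-value could move. The authors' table holds fewer probes, so its counts were smaller, with 581 genes higher and 744 lower. Of the 21 listed genes it holds, 20 were lower and 1 higher, and of 8 other pathway genes 7 were lower and 1 higher. All 1325 probes of that table were called, so the calls of its listed genes are no separate check. Without spots of uneven or outlying background, IMD4 had no value on 1 array and dropped out, and 37 of 40 genes were lower and 1 higher. Genes at least 2-fold lower numbered 23 to 26 outside the authors' table. With normexp background correction, the difference between URA5 and URA10 was -4.48 in place of -4.79. Leaving out 1 array at a time gave 2116 to 2258 genes higher and 2399 to 2505 lower. The slide as a random block gave 2199 higher and 2510 lower, with a consensus correlation of 0.07. No slide held arrays of both strains, so this fit cannot separate strain from slide or from day of scanning. Same-numbered samples of the strains deviated from their group means with correlations of 0.13, 0.24 and 0.00. These values do not settle whether the numbers pair the samples. The replicate block gave 2270 genes higher and 2576 lower, 39 of the 41 lower and 1 higher, and 12 other pathway genes higher and 26 lower. No alternative moved the median of all genes by more than 0.1 except the authors' table, which is a selection of probes. The negative control spots averaged 58.2 to 63.5 net intensity units on BH13 arrays and 27.4 to 31.9 on REF arrays. What part this has in low values, such as those of PPR1 and those of URA10 on REF arrays, was not tested.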

Other observations

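Histidine synthesis starts from PRPP and ATP and releases AICAR, an intermediate of the purine route. Of its 7 genes, 4 were lower and 2 higher in BH13, and HIS5 was not called, with a median of -1.12. Of all genes tested 43.3% were lower and 38.0% higher. The 4 lower genes, 57.1% of the 7, were each at least 2-fold lower, against 17.5% of all genes. With only 7 genes, nothing is read from these counts. HIS1, which encodes the first enzyme and uses PRPP, fell by 1.37 ± 0.10, and HIS3, a dehydratase gene and common strain marker, fell by 1.34 ± 0.10. HIS7, whose enzyme releases AICAR, fell by 1.26 ± 0.08 (chosen after its value was seen). HIS4, which encodes other steps of the route, was higher at 0.60 ± 0.08 (limma adjusted p = 0.000116), and was also named after its value was seen.

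The 2 spots of each probe give a measure of spread within an array. For the 41 genes the largest gap between the 2 spots on any array was 0.28 on the log2 scale, and the median of each gene's largest gap was 0.14. None of the 492 spots of these genes over the 6 arrays was marked as a feature outlier or saturated, and 23 had an uneven or outlying background.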
